A study of Mus musculus with 6 samples.

Results

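The genes described here are 10 immediate early genes, namely Ier3, Ier2, Jun, Junb, Fos, Fosb, Egr1, Egr2, Egr3 and Crem. They were taken by symbol from a deposited table of 19162 genes, each symbol matched 1 row, and all 10 were among the 13326 genes with enough counts to test. RNA was sequenced from bone marrow cells of C57BL/6J mice, which the submitters call BM-MDSCs, grown for 4 days with GM-CSF at 40 ng/mL, a growth factor for granulocytes and macrophages. The KCl group (3 libraries, replicates 1, 2 and 4) had 34.7 mM of added potassium chloride, and the control group (3 libraries, replicates 1, 2 and 4) had none. All cells were therefore treated with GM-CSF, no genetic change is named in the labels, and the age and sex of the mice and any pooling are not given there. Added KCl raises osmolality together with potassium, and cells given a different solute at the same osmolality were not analysed here.

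Immediate early genes are switched on within minutes of a stimulus without new protein synthesis, through kinases that act on factors such as SRF and CREB already bound at their promoters. Their mRNAs are short-lived, in part through AU-rich elements in the 3′ untranslated region (UTR), so their level reflects ongoing transcription and decay. Raised extracellular KCl is widely used to depolarise neurons, where calcium entry induces Fos, Egr1 and their relatives. In myeloid cells JUN and FOS proteins pair to form the factor AP-1, and EGR proteins take part in the monocyte and macrophage programme. The libraries here were made after 4 days of culture, so they show the level at that time and not the first minutes.

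The libraries held 17814232 to 18933948 counts in KCl and 14118724 to 21694831 counts in control. The libraries KCl 4 and control 4 were not independent of the other 4. CPM is a count scaled by library size and TMM, but for this check it was scaled by library size alone. Over 8231 genes averaging 300 counts or more, the mean CPM of this pair was divided by that of the other 4 libraries. On the log2 scale this ratio had an SD of 0.01, against 0.044 from counting noise and 0.123 to 0.262 for the 14 other pairs. For the 10 early genes the same log2 ratio lay between -0.016 for Fosb and 0.019 for Crem. P-values from all 6 libraries may therefore be too small, and SEs and intervals too narrow. The tests were repeated without this pair. The defining myeloid genes Itgam (1117 CPM in KCl and 984 CPM in control) and Spi1 (530 CPM in KCl and 427 CPM in control) were abundant. The T cell gene Cd3e was close to absent, at 0.275 CPM in KCl and 0.20 CPM in control.

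After 4 days, the early genes did not move as a block. By the quasi-likelihood test of edgeR, adjusted over all genes by Benjamini-Hochberg, Ier3, Jun and Junb rose in KCl and Egr1 fell, while Fos, Fosb, Egr2, Egr3, Ier2 and Crem did not pass a threshold of 0.05. That is 4 of 10 called, against 22.9% of all tested genes, with 3 higher (12.4% of all genes) and 1 lower (10.5% of all genes). The groups did not overlap for 6 of the 10, 3 with every KCl library above every control library and 3 with every KCl library below. Among all tested genes 38.5% had groups without overlap, 20.2% above and 18.4% below, and with 10 genes nothing particular to them is read from these counts. The log2 fold changes, KCl over control, ran from -0.66 for Crem to 0.99 for Ier3 with a median of 0.16, against a median of -0.005 over all tested genes.

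Without KCl 4 and control 4, the same test called 0 of the 10 at an adjusted p under 0.05, and 0.458% of all genes. All 10 kept the sign of their change, and 4 had an unadjusted p under 0.05, as did 29.8% of all genes in that fit. The log2 fold changes of the genes not called were then 0.43 for Fos, -0.31 for Fosb, 0.05 for Egr2, -0.33 for Egr3, 0.215 for Ier2 and -0.61 for Crem. Each rise or fall of an early gene or listed pathway gene below was called from all 6 libraries and not without this pair. Fewer cells of a type that expresses a gene and less of its RNA per cell cannot be told apart in these bulk samples.

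**Figure D1:**
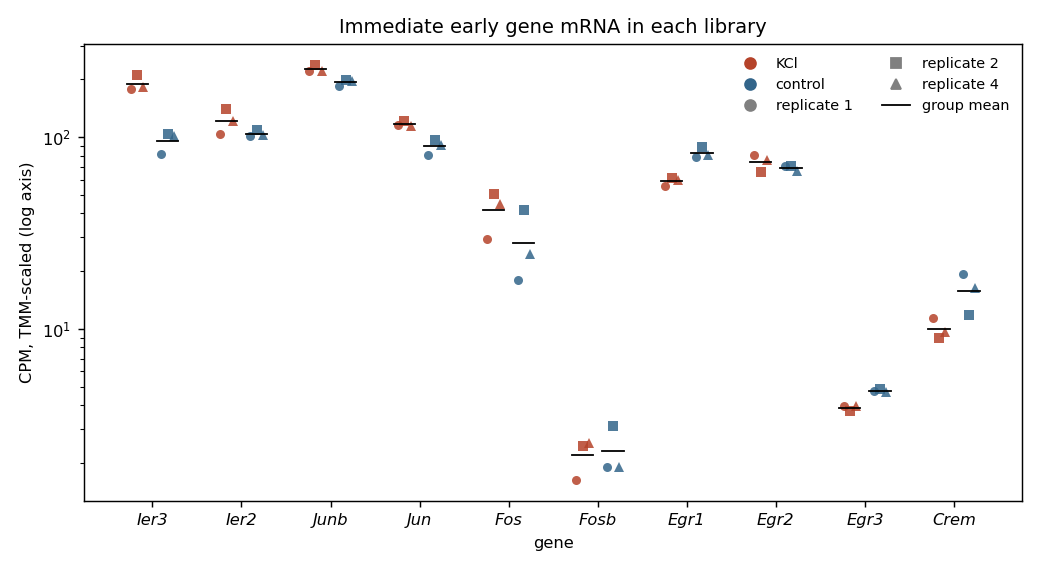
Expression of the 10 genes in each library, as TMM-scaled CPM on a log axis, with KCl (red) left of control (blue), 1 symbol shape per replicate number and a bar at the group mean. The KCl libraries lie above all control libraries for Ier3, Junb and Jun, below them for Egr1, Egr3 and Crem, and among them for Fos, Fosb, Egr2 and Ier2.

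Ier3 encodes a short stress-induced protein that modulates cell survival and ERK and NF-kB signalling. Its position in mm10 (GRCm38) is chromosome 17, 35821684 to 35822923, plus strand. All 10 genes are annotated as protein-coding, and each value is for the whole gene. Ier3 stood at 178, 210 and 182 CPM in KCl 1, 2 and 4, against 81.8, 104 and 101 CPM in control 1, 2 and 4. The lowest KCl library was well above the highest control library. Ier3 averaged 190 ± 17.7 CPM in KCl and 95.7 ± 12.1 CPM in control (SD, n = 3 each), so the KCl mean was 198.5% of the control mean. Its log2 fold change was 0.99 ± 0.11 (SE; edgeR adjusted p = 0.0043), and 1.06 ± 0.15 without replicate 4 (edgeR adjusted p = 0.0686). The call held whichever single library was left out, with edgeR adjusted p from 0.0129 to 0.0189. Such fits, here and below, still hold KCl 4, control 4 or both, so they are not independent checks. Ier3 had the smallest p of the 10 genes and ranked 325 by p among all tested genes.

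The regions upstream of 4 of the genes are shown because Ier3, Jun and Junb rose while Fos, the best studied gene of this class, did not pass. Each runs for 250 bases up to the RefSeq start site on GRCm38.p6, 5′ to 3′ in the direction of the gene. Capitals mark matches on either strand to the CRE-like motif TGACNTCA, its shorter form TGACG, the AP-1 motif TGANTCA, the EGR motif GCGNGGGCG, the TATA motif TATAA, the SRF-binding CArG box and the NF-kB motif.
Ier3, chr17:35821463-35821712, plus strand: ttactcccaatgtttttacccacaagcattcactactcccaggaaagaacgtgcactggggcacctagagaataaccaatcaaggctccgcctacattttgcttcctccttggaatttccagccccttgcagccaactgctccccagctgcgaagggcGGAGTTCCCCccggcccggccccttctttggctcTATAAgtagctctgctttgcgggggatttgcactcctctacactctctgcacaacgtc
Jun, chr4:95052223-95052472, minus strand: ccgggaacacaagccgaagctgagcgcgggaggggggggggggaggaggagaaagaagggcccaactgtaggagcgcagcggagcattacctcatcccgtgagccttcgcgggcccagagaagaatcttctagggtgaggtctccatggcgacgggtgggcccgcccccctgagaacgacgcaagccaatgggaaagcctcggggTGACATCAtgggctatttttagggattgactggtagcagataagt
Junb, chr8:84978749-84978998, minus strand: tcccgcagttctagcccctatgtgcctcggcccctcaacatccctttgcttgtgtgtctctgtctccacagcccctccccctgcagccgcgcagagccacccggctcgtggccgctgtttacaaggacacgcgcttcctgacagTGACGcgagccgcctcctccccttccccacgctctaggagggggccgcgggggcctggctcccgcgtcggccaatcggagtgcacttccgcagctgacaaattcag
Fos, chr12:85473640-85473889, plus strand: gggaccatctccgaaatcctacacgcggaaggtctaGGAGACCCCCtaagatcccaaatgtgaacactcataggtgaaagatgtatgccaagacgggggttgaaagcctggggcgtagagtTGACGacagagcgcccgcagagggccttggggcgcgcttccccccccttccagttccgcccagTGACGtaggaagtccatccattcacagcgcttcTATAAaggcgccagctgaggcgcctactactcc

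In these windows Ier3 has an NF-kB match that starts 92 bases before the RefSeq start site and a TATA match at 58. The Ier3 window runs to base 35821712, past the gene start at 35821684 given above, so the annotations place the start differently. They also differ for Junb. Jun has the CRE-like TGACATCA at 45 bases before the start site, Junb a TGACG at 106, and Fos TGACG matches at 129 and 66, an NF-kB match at 214 and TATAA at 33. Of 32851 mouse promoter windows of this length, 7.49% held TGACNTCA, 17.8% TGACG, 6.75% TGANTCA, 4.7% GCGNGGGCG, 22.8% TATAA, 1.47% a CArG box and 7.25% an NF-kB match, and TGACG can overlap the CRE-like motif. Of the 10 genes, 6 were in the RefSeq table (Ier3, Jun, Junb, Fos, Fosb and Egr2), and 4 of the 5 windows of Egr2, some of which overlap, held a CArG box. No CArG box was found in the windows of Ier3, Jun, Junb, Fos and Fosb. Bases further upstream than the windows were not searched, so absence from a window does not mean that a gene lacks the motif. A match describes letters and not a bound site.

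Jun and Junb encode the AP-1 subunits that can pair with each other or with a FOS protein, JUN being the stronger activator of the pair. Jun (chromosome 4, 95049034 to 95052222, minus strand, a single exon) stood at 116, 122 and 114 CPM in KCl 1, 2 and 4, against 80.5, 96.8 and 90.8 CPM in control 1, 2 and 4. The KCl libraries lay close together and above all control libraries. Its log2 fold change was 0.39 ± 0.08 (SE, n = 3 per group; edgeR adjusted p = 0.0165), and 0.42 ± 0.11 without replicate 4 (edgeR adjusted p = 0.105). Jun missed the threshold without KCl 1, without KCl 2 or without control 4, at edgeR adjusted p from 0.0502 to 0.0559.

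Junb (chromosome 8, 84974484 to 84978718, minus strand) stood at 220, 239 and 221 CPM in KCl 1, 2 and 4, against 185, 199 and 196 CPM in control 1, 2 and 4. Its groups were separated by less than Jun's, and its log2 fold change was 0.23 ± 0.06 (SE, n = 3 per group; edgeR adjusted p = 0.032). Its call was lost when any single library was left out, at edgeR adjusted p from 0.0519 to 0.101, and the log2 fold change was 0.26 ± 0.08 without replicate 4. The annotation places antisense or opposite-strand genes over both. The antisense RNA gene Junos shares 689 bases with Jun and was at 12.5, 16.1 and 13.1 CPM in KCl 1, 2 and 4, against 7.29, 8.75 and 8.19 CPM in control 1, 2 and 4. Junos rose as well (log2 fold change 0.78 ± 0.13, edgeR adjusted p = 0.00942, and 0.0895 without replicate 4), and, with no strand setting stated for the counting, reads in the shared bases cannot be assigned. Prdx2, a peroxiredoxin gene that shares 351 bases with Junb, did not pass (-0.02 ± 0.06, edgeR adjusted p = 0.842).

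Fos and Fosb encode FOS proteins, which bind DNA only as partners of a JUN protein. Fos (chromosome 12, 85473890 to 85477273, plus strand) stood at 29.5, 50.7 and 44.9 CPM in KCl 1, 2 and 4, against 18.1, 41.4 and 24.7 CPM in control 1, 2 and 4. The groups overlapped, since control 2 exceeded KCl 1. Its spread was the widest of the 10 genes in each group, with a coefficient of variation of 26.2% in KCl and 42.8% in control, against 3.52% in KCl and 9.21% in control for Jun. Its change of 0.57 ± 0.34 on the log2 scale (SE, n = 3 per group; edgeR adjusted p = 0.329) has a 95% confidence interval from -0.26 to 1.39, so a change larger than that of Ier3 and a small fall both lie within it. It was 0.97 without control 2 (edgeR adjusted p = 0.0649) and 0.31 without control 1 (edgeR adjusted p = 0.66).

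Fosb (chromosome 7, 19302696 to 19310051, minus strand) was scarce, with 31, 42 and 46 counts in KCl 1, 2 and 4, against 40, 68 and 27 counts in control 1, 2 and 4. At 2.21 ± 0.50 CPM in KCl and 2.31 ± 0.70 CPM in control (SD, n = 3 each), the groups overlapped. Its log2 fold change was -0.08 ± 0.28 (edgeR adjusted p = 0.863, 95% interval from -0.76 to 0.59), so a fall or a rise within that interval remains possible. Its sign turned without KCl 1 and without control 2.

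The EGR genes encode zinc finger factors that bind the same GC-rich motif. Egr1 (chromosome 18, 34859823 to 34864984, plus strand) stood at 55.7, 61.1 and 59.9 CPM in KCl 1, 2 and 4, against 79.2, 88.8 and 80.3 CPM in control 1, 2 and 4. Every KCl library was below every control library, and the KCl mean of 58.9 ± 2.84 CPM was 71.1% of the control mean of 82.8 ± 5.24 CPM (SD, n = 3 each). The log2 fold change was -0.49 ± 0.07 (SE; edgeR adjusted p = 0.00621), and -0.53 ± 0.10 without replicate 4 (edgeR adjusted p = 0.0774). The fall was called whichever single library was left out, with edgeR adjusted p from 0.0155 to 0.0288.

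Egr2 (chromosome 10, 67535475 to 67542188, plus strand), which is also known for its part in macrophage and Schwann cell programmes, stood at 80.9, 65.8 and 76.2 CPM in KCl 1, 2 and 4, against 70.3, 70.9 and 66.4 CPM in control 1, 2 and 4. KCl 2 was the lowest of all 6 libraries and KCl 1 the highest. Its log2 fold change was 0.10 ± 0.09 (SE, n = 3 per group; edgeR adjusted p = 0.517, 95% interval from -0.11 to 0.31). That interval does not reach the fall of Egr1, but it may be too narrow, since the SE of Egr2 was 0.12 without replicate 4. Egr3 (chromosome 14, 70077203 to 70082614, plus strand) was low, at 75, 64 and 72 counts in KCl 1, 2 and 4, against 100, 106 and 66 counts in control 1, 2 and 4 from libraries of unequal size. Scaled, this gave 3.89 ± 0.13 CPM in KCl and 4.76 ± 0.10 CPM in control (SD, n = 3 each), with no overlap between groups. Its log2 fold change of -0.29 ± 0.10 (SE) did not pass (edgeR adjusted p = 0.0877). With DESeq2 the log2 fold change of Egr3 was -0.295 ± 0.215 (SE; DESeq2 adjusted p = 0.425). The spread between libraries was narrow for so few counts, so the gap between the groups is not a measure of precision. Whether Egr1 and Egr2 differed in their change was not tested, but within each library Egr2 gave 1.45, 1.08 and 1.27 counts per count of Egr1 in KCl 1, 2 and 4, against 0.887, 0.799 and 0.827 in control 1, 2 and 4, a ratio that library scaling cannot alter.

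Ier2 encodes a small nuclear protein of the early response. Ier2 (chromosome 8, 84661331 to 84662852, minus strand) stood at 104, 141 and 122 CPM in KCl 1, 2 and 4, against 101, 109 and 103 CPM in control 1, 2 and 4. KCl 1 lay within the control range and the other KCl libraries above it. Its change of 0.23 ± 0.11 on the log2 scale (SE, n = 3 per group) did not pass (edgeR adjusted p = 0.224), and passed without KCl 1 (0.33, edgeR adjusted p = 0.0476). The count ratio of Ier3 to Ier2 was 1.71, 1.5 and 1.49 in KCl 1, 2 and 4, against 0.811, 0.954 and 0.984 in control 1, 2 and 4. The ratio of Ier3 to Egr1, chosen after their values were seen, was 3.19, 3.44 and 3.04 in KCl 1, 2 and 4, against 1.03, 1.17 and 1.26 in control 1, 2 and 4.

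Crem encodes activators and repressors of cAMP-driven transcription, among them the short repressor ICER that is made from an internal promoter and shuts down CREB targets. Crem (chromosome 18, 3266048 to 3337748, minus strand) stood at 11.4, 8.92 and 9.68 CPM in KCl 1, 2 and 4, against 19.3, 11.8 and 16.2 CPM in control 1, 2 and 4. All KCl libraries were below all control libraries, but control 2 lay close to KCl 1. Its change of -0.66 ± 0.20 on the log2 scale (SE, n = 3 per group) narrowly missed the threshold (edgeR adjusted p = 0.0609, 95% interval from -1.13 to -0.18). It was -0.83 without control 2 (edgeR adjusted p = 0.0185) and -0.49 without control 1 (edgeR adjusted p = 0.147). DESeq2 called Crem lower at an adjusted p of 0.0186. GENCODE M21 lists 39 transcripts of Crem, and the counts do not separate ICER from the longer forms.

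**Figure D2:**
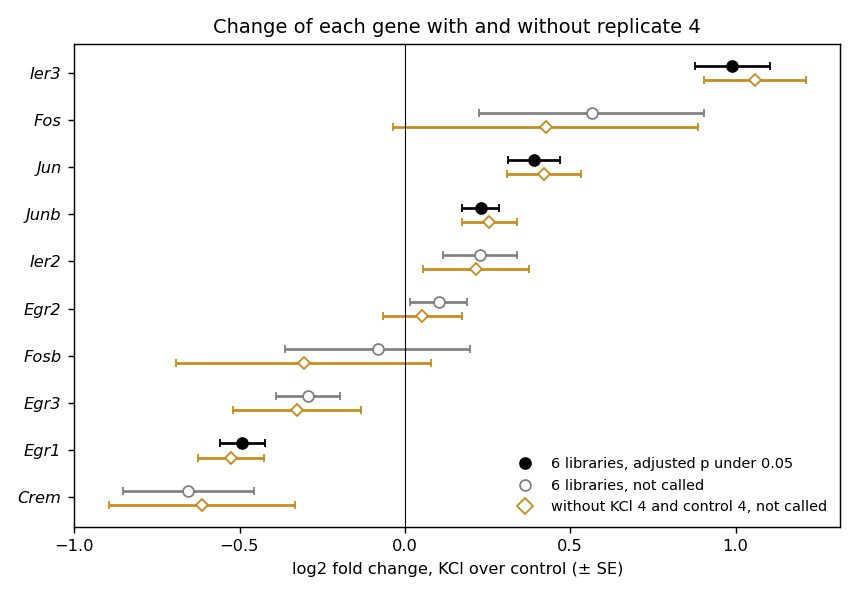
Log2 fold change of each gene, KCl over control, with its standard error, from all 6 libraries (circles, filled where adjusted p is under 0.05) and without KCl 4 and control 4 (open diamonds, none called). All 10 genes keep their sign, and Fos and Fosb have the widest errors.

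Set beside each other per length, the genes spanned a wide range. Per kilobase of all annotated exons scaled to library size, Ier3 had the highest mean in KCl (166 ± 11.1, SD, n = 3), followed by Junb (97.6 ± 1.92), Ier2 (79.4 ± 10.2) and Jun (36.4 ± 0.37). Egr2 (21.7 ± 2.76), Fos (17.5 ± 4.32) and Egr1 (13 ± 0.496) came next in KCl, with Egr2 and Fos within each other's spread, and Crem, Egr3 and Fosb were at 1.69, 0.875 and 0.35. In control on the same scale, Ier3 (85.1 ± 10.6) and Junb (84.5 ± 3.2) did not differ beyond their spread, Ier2 stood at 68.9 ± 2.91, and Egr1 (18.6 ± 1.17) lay above Fos (12 ± 5.14). Jun, Ier2 and Ier3 have the same length in this annotation as in the authors' FPKM (reads scaled to gene length and library size). For the others the length implied by the deposited FPKM was 0.321 times (Egr3) to 3.83 times (Crem) the annotated exon length. In control, deposited FPKM put Junb (106 ± 4) above Ier3 (85.1 ± 10.6), which did not differ beyond their spread by exon length. It put Egr3 (3.38 ± 0.0756) above Crem (0.703 ± 0.169), where exon length gave 1.09 for Egr3 and 2.7 for Crem. Within 1 gene the length cancels, so the comparison of groups is not touched.

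**Figure D3:**
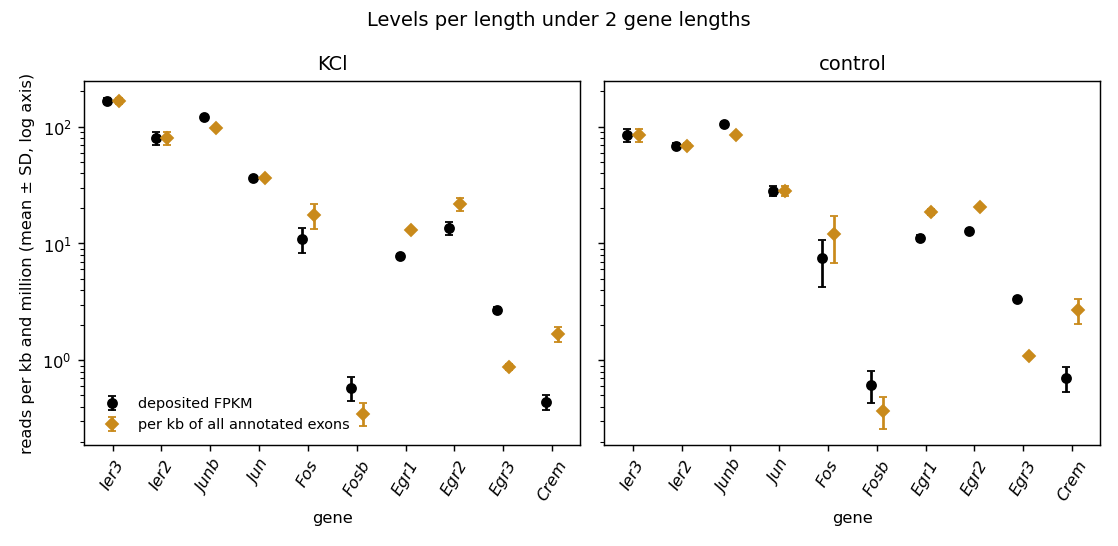
Mean level of each gene ± SD over 3 libraries in KCl (left) and control (right), on a log axis, as deposited FPKM (black circles) and per kilobase of all annotated exons (diamonds). The scales coincide for Ier3, Ier2 and Jun and part most for Crem and Egr3.

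The genes share a compact structure that the choice by symbol did not use. Gene span was under 10 kb for 9 of 10, Crem being the exception at 71701 bases, against 24.3% of 14671 protein-coding genes of the table with a 3′ UTR of at least 100 bases. The AU-rich pentamer ATTTA occurred 8.16 times per kb of the 3′ UTR of Ier3, which exceeds 98.7% of these genes, and 6.14 times per kb in Crem, which exceeds 96.6%. Fos had 4.91 per kb, Junb 4.12, Jun 3.24, Egr3 2.65, Egr2 2.5, Egr1 1.64 and Fosb 0.43, and Ier2 had none in 755 bases, against a median of 1.3 per kb over all genes compared. Whether pentamer density goes with the change in KCl was not tested. The densest 30-base stretch of the 3′ UTR is shown for 4 genes, on GRCm38 and 5′ to 3′ along the mRNA, with ATTTA in capitals.
Ier3, chr17:35822484-35822513, plus strand: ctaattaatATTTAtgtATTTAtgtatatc
Jun, chr4:95049207-95049236, minus strand: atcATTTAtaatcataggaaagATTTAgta
Junb, chr8:84977127-84977156, minus strand: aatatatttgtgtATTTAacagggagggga
Fos, chr12:85477100-85477129, plus strand: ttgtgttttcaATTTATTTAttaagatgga

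Other genes of the early response pathway were counted by role, in 9 lists of 111 genes that do not include the 10 above, 106 of which could be tested. With all 6 libraries 21 rose and 8 fell, which is 27.4% called against 22.9% of all tested genes, and the median log2 fold change was 0.03. Without replicate 4 edgeR called 0 of them at an adjusted p under 0.05. In that fit 42 of the 106 had an unadjusted p under 0.05, as did 29.8% of all genes. Of the 29 called genes, 15 were called whichever single library was left out, and the other 14 were lost in at least 1 such fit, at edgeR adjusted p from 0.0502 to 0.173.

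Among 13 partners of AP-1, 3 rose and 10 did not pass (list median 0.17). Mafk, a small MAF protein without an activation domain, rose, at 51, 49 and 47.5 CPM in KCl 1, 2 and 4, against 33.1, 35.1 and 35.7 CPM in control 1, 2 and 4 (log2 fold change 0.51 ± 0.06, edgeR adjusted p = 0.00422). Its relative Mafg (0.31 ± 0.07) and Jdp2, a repressor that pairs with JUN (0.29 ± 0.07), rose too, but each was lost in 4 of the 6 fits without 1 library. For Mafg these left out KCl 1, KCl 2, KCl 4 or control 4 (edgeR adjusted p up to 0.0706), and for Jdp2 they left out KCl 4 or any control library (edgeR adjusted p up to 0.0859). Batf3, a dendritic cell factor, was lower without passing (-0.34 ± 0.11, edgeR adjusted p = 0.0712). Jund, the third JUN gene, stood at 207 CPM in KCl and 230 CPM in control (-0.15 ± 0.06, edgeR adjusted p = 0.138). Nab1, a corepressor that binds EGR proteins, rose to 138 ± 3.73 CPM in KCl, against 112 ± 4.28 CPM in control (SD, n = 3 each; 0.31 ± 0.05, edgeR adjusted p = 0.00946), while its relative Nab2 did not pass (0.08 ± 0.11, edgeR adjusted p = 0.667).

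Of 6 genes for SRF and its cofactors, 2 rose and 4 did not pass (list median 0.14). The ETS factor genes Elk4 (0.40 ± 0.06, edgeR adjusted p = 0.0061) and Elk3 (0.31 ± 0.07, edgeR adjusted p = 0.0255) rose, Elk3 being lost without any single library but KCl 4 (edgeR adjusted p from 0.0502). Elk1 (0.21 ± 0.08, edgeR adjusted p = 0.103) and the SRF coactivator gene Mkl1 (0.06, edgeR adjusted p = 0.581) did not pass. Srf itself was at 89.5 CPM in KCl and 92.9 CPM in control. Of 15 tested genes for CREB, its coactivators and kinases, 1 rose and 2 fell (list median 0.03). Camk1, a kinase that calcium and calmodulin switch on, rose to 91.2 ± 3.96 CPM in KCl, against 55.8 ± 6.51 CPM in control (SD, n = 3 each; 0.71 ± 0.10, edgeR adjusted p = 0.00581). Prkar2a, a regulatory subunit of the cAMP-dependent kinase, fell to 80.6 ± 0.255 CPM in KCl, against 106 ± 5.10 CPM in control (-0.39 ± 0.05, edgeR adjusted p = 0.00581). Its catalytic subunit gene Prkaca fell by 0.17 on the log2 scale, a call that was lost without any single library (edgeR adjusted p from 0.0609 to 0.166), and Camk2g (-0.31 ± 0.09, edgeR adjusted p = 0.0554) and Creb1 did not pass (-0.06 ± 0.13, edgeR adjusted p = 0.768).

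Of 19 MAP kinase cascade genes, 2 rose and 17 did not pass (10.5% called, list median 0.02). Mapkapk2, the kinase through which p38 stabilises AU-rich mRNAs, rose to 604 ± 13.9 CPM in KCl, against 445 ± 45.3 CPM in control (SD, n = 3 each; 0.44 ± 0.08, edgeR adjusted p = 0.0132, and 0.0502 without KCl 1). The JNK genes Mapk8 (-0.18) and Mapk9 (-0.16) did not pass. Of 6 factors that act on AU-rich mRNAs, 2 rose and 1 fell. Zfp36l2 (0.44 ± 0.07, edgeR adjusted p = 0.0101) and Zfp36 (0.24 ± 0.04, edgeR adjusted p = 0.0125, and 0.0567 without control 4), which speed the decay of such mRNAs, rose. The stabilising protein gene Elavl1 fell by 0.16 ± 0.04 on the log2 scale, a call lost without any single library (edgeR adjusted p from 0.0559 to 0.173). Zfp36l1 did not pass (-0.10, edgeR adjusted p = 0.774).

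Of 27 other early response genes tested, 8 rose, 1 fell and 18 did not pass (33.3% called, list median 0.15). Sgk1, whose kinase product raises the surface level of ion carriers, stood at 111, 137 and 115 CPM in KCl 1, 2 and 4, against 56.8, 71.9 and 67.9 CPM in control 1, 2 and 4 (0.88 ± 0.12, edgeR adjusted p = 0.00596). The stress genes of the GADD45 family went separate ways. Gadd45g rose to 16.8 ± 1.24 CPM in KCl, against 9.79 ± 0.772 CPM in control (0.78 ± 0.10, edgeR adjusted p = 0.00484), Gadd45b fell to 42.9 ± 0.911 CPM in KCl, against 68.2 ± 4.09 CPM in control (-0.67 ± 0.06, edgeR adjusted p = 0.00299), and Gadd45a was at 25.1 CPM in both groups. The kinase gene Pim1 (0.44 ± 0.07) and the factors Klf4 (0.53 ± 0.09) and Klf2 (0.55 ± 0.10) rose, as did Rhob (0.62 ± 0.12, edgeR adjusted p = 0.0145, and 0.0503 without KCl 1). Plk3 (0.53 ± 0.15) passed only without control 2 among the 6 fits without a single library, and Ier5 (0.20 ± 0.05) in none of them (edgeR adjusted p from 0.0505 to 0.0871). Npas4, a gene known from depolarised neurons, was too low to test (0.278 CPM in KCl and 0.29 CPM in control). Arc, Nr4a1 and Nr4a3 did not pass, with Arc at -0.63 ± 0.26 (edgeR adjusted p = 0.146), Nr4a1 at -0.21 ± 0.24 (edgeR adjusted p = 0.625) and Nr4a3 at -0.83 ± 0.33 (edgeR adjusted p = 0.135). Jund, Srf, Creb1, Gadd45a, Klf2, Klf4, Rhob, Plk3, Ier5, Npas4, Arc, Nr4a1 and Nr4a3 were named after their values were seen.

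Target genes showed both directions. Of 8 tested cAMP and CREB targets, 1 rose and 2 fell, the falls being in the phosphodiesterase genes Pde3b (-0.80 ± 0.10, edgeR adjusted p = 0.00485) and Pde4b (-0.59 ± 0.10, edgeR adjusted p = 0.00885), whose enzymes break down cAMP. Per1, a clock gene, rose by 0.37 ± 0.09 (edgeR adjusted p = 0.0291), and was lost without KCl 1, KCl 4, control 1 or control 4, at edgeR adjusted p from 0.084 to 0.0918. Pde4a did not pass (0.18). Of 10 AP-1 and EGR targets, 1 rose and 2 fell. Plau, the urokinase gene, rose to 95.8 ± 10.6 CPM in KCl, against 64.0 ± 6.91 CPM in control (SD, n = 3 each; 0.58 ± 0.11, edgeR adjusted p = 0.0148). Vim (-0.56 ± 0.12, edgeR adjusted p = 0.0228) and Ccnd1 (-0.33 ± 0.08, edgeR adjusted p = 0.0292) fell. Vim was lost without any 1 KCl library or control 4 (edgeR adjusted p from 0.055 to 0.0761), and Ccnd1 without KCl 2, KCl 4, control 2 or control 4 (edgeR adjusted p from 0.0649 to 0.0974). The cytokine gene Il6 narrowly missed (-0.72, edgeR adjusted p = 0.0592).

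**Figure D4:**
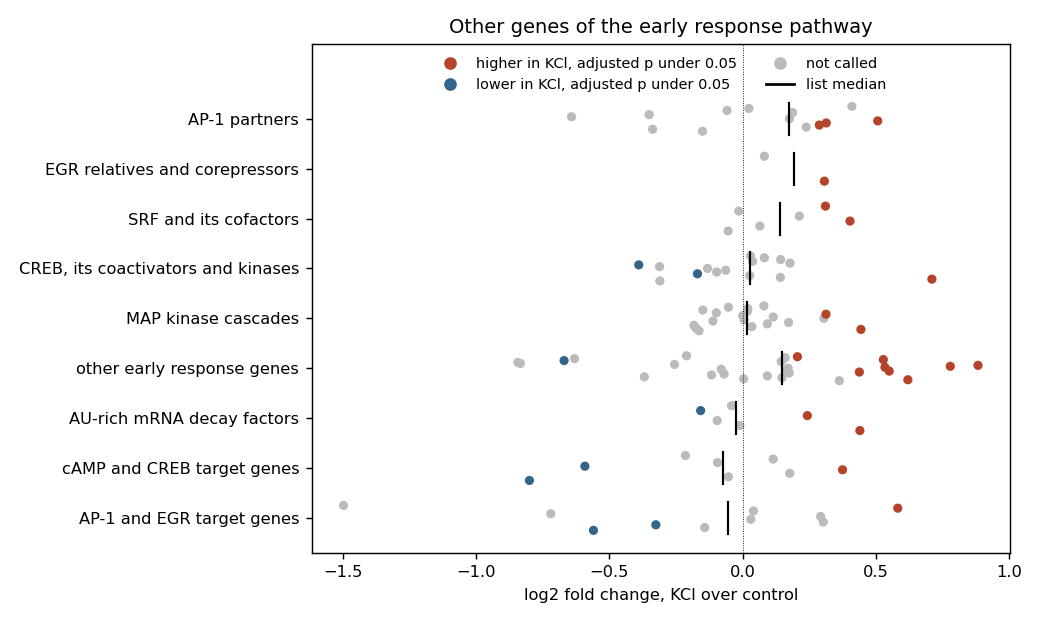
Log2 fold change, KCl over control, of each tested gene in 9 lists of early response pathway genes, coloured by call in the test of all 6 libraries, with a bar at each list's median. Medians lie between -0.07 and 0.19, and called genes stand on both sides of 0.

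The genes whose profile over the 6 libraries came closest to each called early gene were found among 9286 genes with a mean of at least 10 CPM, as the root mean square difference of log2 CPM centred on each gene's mean. For Ier3 these were Mcoln2, an endolysosomal cation channel gene (0.013), and Ncam1, an adhesion molecule gene (0.018). For Jun they were Plcb2, a phospholipase C gene (0.009), and Abr (0.013), and for Junb they were Por (0.01) and Tmem63a (0.011). For Egr1 the closest, Trp53bp1 (0.033) and Serhl (0.035), were further off. The values of KCl 4 and control 4 follow from the other libraries in all of these genes, so fewer than 6 independent values stand behind each profile. The closest genes were picked from many, and their distances were not set against counting noise. No link between genes, and no meaning of their order, is read from them.

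Markers of cell types moved with the same contrast. The summed level of 8 general myeloid genes was 14500 to 17500 CPM in KCl and 9470 to 11500 CPM in control, with 5 of 8 called higher. The lysozyme gene Lyz2 made up most of that sum (9942 CPM in KCl and 5451 CPM in control), and the other 7 genes summed to 5350 to 5970 CPM in KCl and 4700 to 5580 CPM in control, which overlap. The sum of 6 monocyte genes was 1440 to 1720 CPM in KCl and 1030 to 1210 CPM in control, with 3 of 6 higher, and without Ly6c2 it was 563 to 695 CPM in KCl and 481 to 590 CPM in control, which also overlap. The sum of 9 dendritic cell genes was 4160 to 5220 CPM in KCl and 5600 to 7520 CPM in control, with 5 of 9 lower, and that of 8 eosinophil genes was 962 to 1120 CPM in KCl and 2350 to 2580 CPM in control, with 5 of 8 lower. Neutrophil genes summed to 12300 to 17700 CPM in KCl and 10600 to 11400 CPM in control, with 3 of 10 higher. No marker with a row in the deposited table was at 0 in all libraries, and of 8 lymphocyte markers listed 7 had a row. The part of these shifts in the changes of Ier3, Jun, Junb and Egr1 was not tested. Sums for macrophage, mast cell and basophil, lymphocyte, erythroid and stromal markers overlapped between the groups. Without Pecam1, the other 5 stromal genes summed to 12 to 13.7 CPM in KCl and 9.02 to 10.2 CPM in control, which do not overlap. Single genes of these lists were called in both directions. C1qc, Kit, Ms4a1 and Col1a1 were called higher in KCl, and Marco and Mcpt8 lower. Of the called markers, C1qc, Kit and the eosinophil genes Prg2, Ear1, Ear2 and Ear6 also passed without KCl 4 and control 4. Their edgeR adjusted p then ran from 0.00434 for Ear1 to 0.0432 for C1qc and Prg2. The other called markers did not pass in that fit.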

How the data were processed

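RNA of 6 libraries, 3 per group, was analysed. The labels' protocols give Trizol extraction and an Illumina instrument. The submitters' processing notes name the build mm10, edgeR, StringTie 1.3.3b and HISAT2 2.0.4. The authors deposited whole-number read counts and FPKM per gene, while counter, strand setting and FPKM length were not given in the sources used here. FPKM entered no test.

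The test on counts was edgeR 4.0.16 in R 4.3.3 (filterByExpr with minimum count 10 and minimum total 15, TMM scaling, robust quasi-likelihood test, 2-sided, Benjamini-Hochberg over 13326 genes, threshold 0.05), which was first checked on simulated counts. The simulated libraries were independent of each other, so that check does not cover the dependence of KCl 4 and control 4. Log2 fold changes are KCl minus control with SE, and intervals use the test's degrees of freedom. CPM is TMM-scaled, except per kilobase and in the check of replicate 4 against the other libraries, which used library size alone. Alternatives were other scalings and filters, DESeq2 1.42.0, limma-voom (limma 3.58.1), a replicate block, and libraries left out. A batch term for replicate 4 was added after the data were seen. Groups and numbers came from titles. The labels do not say whether replicates were separate mice or cultures, so p-values measure spread that may be technical.

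Of 19162 gene IDs, 19049 matched GENCODE M21, which gave coordinates, transcripts and 3′ UTRs. Promoters are from RefSeq on GRCm38.p6. The members and lists were chosen with earlier results of these data known. Named were all members, the 4 listed genes per role with the smallest p, and the 2 genes closest in profile to each called member. One gene that this rule names is not reported here. Other names were chosen after their values were seen. Whether the replicate numbers pair the groups could not be told from the counts. The correlation of same-numbered deviations was 0.023, -0.055 and -0.746 for replicates 1, 2 and 4. These values cannot decide it, because KCl 4 and control 4 follow from the other 4 libraries, which ties their deviations to each other.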

Additional observations from a re-analysis of the deposited data

How the results depend on the processing

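No choice of scaling or filter turned the direction of an early gene. RLE, library-size and voom fits and a mean CPM of at least 5 called the same number of early genes, 3 higher and 1 lower, while upper-quartile scaling and no filter called 2 higher and 1 lower, Junb then standing at edgeR adjusted p = 0.0507 and 0.0503. Upper-quartile scaling called 13 listed pathway genes lower, against 8, and turned the balance over all genes to 1422 higher and 1735 lower, against 1655 and 1402. DESeq2 called 2 early genes lower (Egr1 and Crem). With the replicate block, 2 early genes were called lower (Egr1, and Crem at adjusted p = 0.0424), Junb was lost (edgeR adjusted p = 0.0709), and 978 genes overall were higher and 700 lower. This block rests on a shared number only, and whether same-numbered samples belong together could not be told from the counts. With replicate 4 as a batch term, chosen after the data were seen, 13 listed genes were higher and 4 lower, 922 genes overall were higher and 651 lower, and Junb was lost (edgeR adjusted p = 0.0938). Without KCl 4 and control 4, edgeR called 0 early genes higher and 0 lower, 0 listed genes higher and 0 lower, and 45 genes overall higher and 17 lower. With a single library left out, early genes called higher numbered 1 to 2 and lower 1 to 2, listed genes higher 13 to 19 and lower 4 to 12, and all genes higher 852 to 1495 and lower 551 to 1356. Genes that did not pass and changed sign were Fosb, Nab2 and Zfp36l1. With a single library left out, the log2 fold change of Fosb ranged from -0.221 to 0.207 (0.101 without KCl 1, 0.207 without control 2), that of Nab2 from -0.011 (without KCl 1) to 0.157, and that of Zfp36l1 from -0.347 to 0.042 (without KCl 1). Without KCl 4 and control 4 these were -0.306 for Fosb, 0.229 for Nab2 and 0.053 for Zfp36l1. The cause of these differences was not tested beyond the smaller number of libraries. Fosb and Egr3 rest on few counts, and Camk4, Npas4, Areg and Ppargc1a were too low to test.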

Other observations

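The following values were chosen after they were seen and have no test. Of the 10 early genes, 9 were highest in control 2 among the control libraries, and Crem was lowest there. The share of all genes that were highest in control 2 was not counted, and control 4 was not independent of the other libraries. Nothing particular to the early genes is therefore read from this count. Fos was at 41.4 CPM in control 2, against 18.1 in control 1 and 24.7 in control 4. Crem was at 11.8 CPM in control 2, against 19.3 in control 1 and 16.2 in control 4. Nr4a3, an orphan nuclear receptor gene, was at 108, 102 and 91 CPM in KCl 1, 2 and 4, against 94.2 CPM in control 2, 191.5 CPM in control 4 and a higher value in control 1. Arc was at 16.4, 15.1 and 14.1 CPM in KCl 1, 2 and 4, against 31.1, 14.9 and 24.9 CPM in control 1, 2 and 4. For both of these genes, control 2 lay near the KCl libraries.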
